A study of Drosophila melanogaster with 2 samples.

Results

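The Dpr and DIP genes of Drosophila melanogaster, which encode 2 families of neuronal cell-surface proteins, were examined for binding of the transcription factor Ets98B. The members were the protein-coding genes of the Ensembl annotation named dpr with a number or DIP with a Greek letter from alpha to lambda. This gave 32 of 13968 protein-coding genes on the main chromosome arms, of which 21 were dpr genes and 11 were DIP genes. Binding was measured by ChIP-seq, the sequencing of immunoprecipitated chromatin, in whole pupae of strain Ets98B-GFP, aged 2 days and of a sex not collected. These transgenic flies carry Ets98B fused to eGFP, and an antibody to GFP recovered the bound chromatin. Both biological replicates belong to this 1 group, no other genotype or stage and no control was analysed here, and read depth was unknown because the files are peak lists. Chromatin came from whole animals, so binding in few cells and weak binding in many cannot be told apart.

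Dpr proteins (defective proboscis extension response) and DIPs (Dpr-interacting proteins) belong to the immunoglobulin superfamily. A given Dpr binds only certain DIPs, and the pairs are displayed by different subsets of neurons, where they act in the choice of synaptic partners, in the layering of the optic lobe and in the survival of some neurons. Ets98B has an ETS DNA-binding domain, a domain that recognises sequences with a GGAA or GGAT core.

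Few of these genes held a peak. In the conservative list, which the authors made from both replicates and which holds 7157 peaks, 6 of the 32 genes had a peak summit in the gene or within 1 kb of it (18.8%, 95% Wilson interval 8.89 to 35.3%), against 32.1% of all protein-coding genes. Of the dpr genes these were dpr10, dpr14, dpr19 and dpr20, and of the DIP genes DIP-alpha and DIP-eta. A summit within 500 bp of an own transcription start site (TSS), called a start peak here, was present in 4 genes (12.5%, interval 4.97 to 28.1%), against 21.4% of all protein-coding genes. These were dpr10, dpr14, dpr19 and DIP-eta. An intron summit farther from the own TSSs was present in DIP-alpha alone (3.13%, interval 0.554 to 15.7%), against 9.49% of all genes. Intervals cover the counting of genes only, the genes are not replicates of a condition, and none of these differences was tested. Each of the 3 intervals includes the share of all genes. The 26 genes without a conservative peak were dpr1 to dpr9, dpr11, dpr12, dpr13, dpr15 to dpr18 and dpr21, and DIP-beta, DIP-gamma, DIP-delta, DIP-epsilon, DIP-zeta, DIP-theta, DIP-iota, DIP-kappa and DIP-lambda.

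**Figure D1:**
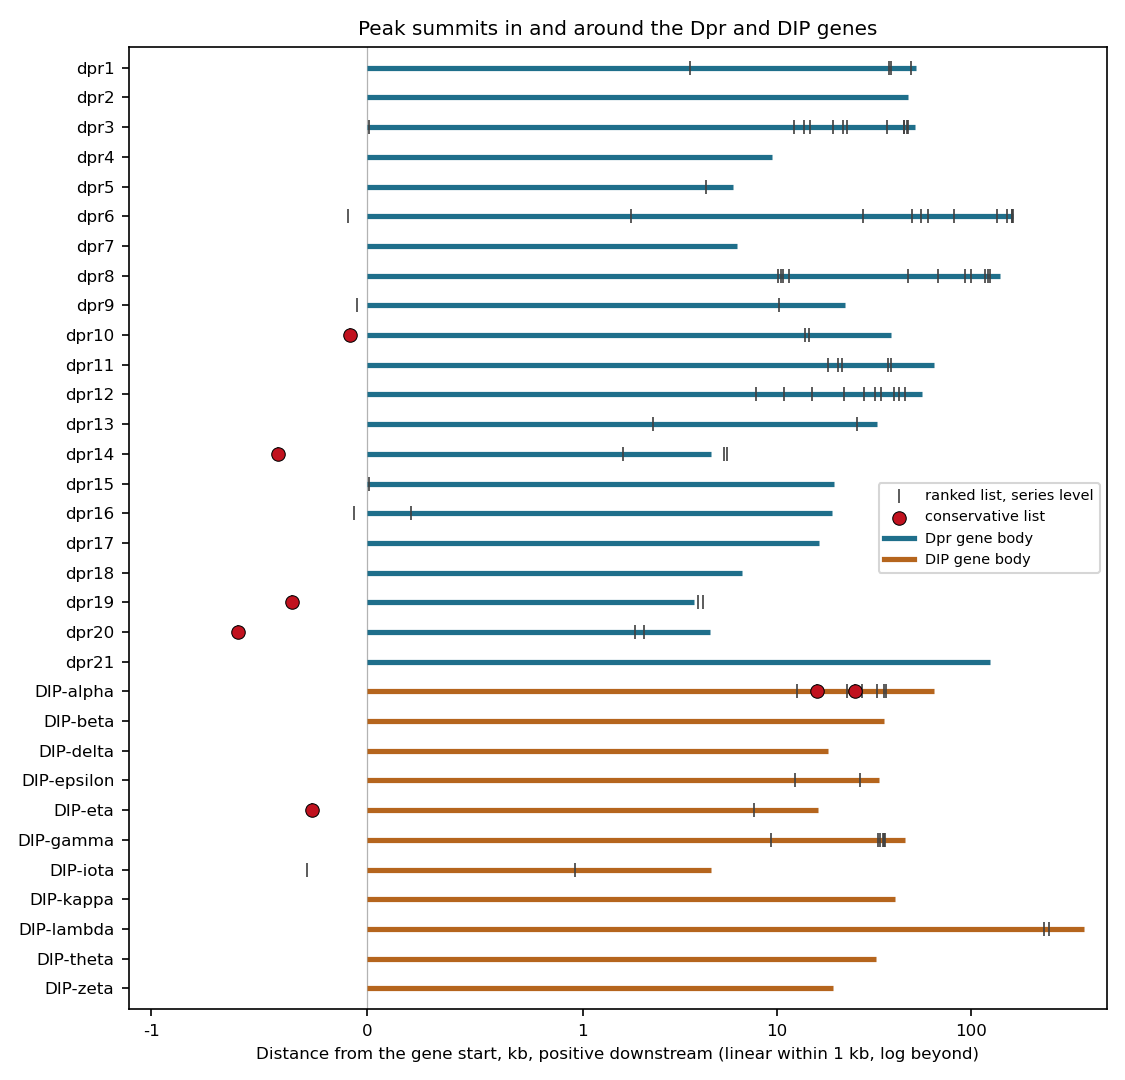
Summits drawn on the 32 genes, each line running from the gene start (0) to the gene end in kb on an axis that is linear within 1 kb and logarithmic beyond. Red circles are the 7 conservative summits, of which 5 lie upstream of a start and 2 in DIP-alpha, and ticks are the summits of the ranked series-level list before its threshold.

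The 7 peaks covered a wide range of signal values, the authors' value for each peak. The strongest was in intron 2 of DIP-alpha, with a signal of 500.8 in the conservative list (rank 387 of 7157), and the next lay upstream of dpr20, with 447 (rank 482). The start peak of dpr14 had a signal of 252 (rank 1319). The other 4 were below the median of 131 over all conservative peaks, with 120 at DIP-eta, 114.7 at dpr19, 109.6 at the other DIP-alpha site and 107 at dpr10. Each replicate's ranked list, which holds peaks before the threshold, had a summit at most 100 bp from every one of them (100%), and this held for 89.8% of all conservative summits. The conservative list was itself made from both replicates, so these matches are not independent of it.

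DIP-alpha (FBgn0052791; X, 3507245 to 3571649, minus strand, dm6) encodes a DIP that pairs with Dpr6 and Dpr10 and acts in the targeting of optic lobe neurons and motor neurons. It was the only gene of the families with conservative summits inside its body. Its strong peak (X, 3546204 to 3546464) had a signal of 260 (replicate 1) and 254 (replicate 2), a mean of 257 ± 4.44 (SD, n = 2). The summit lay 15667 bp from the nearest TSS of DIP-alpha and 222 bp from that of the non-coding RNA gene CR34335, which lies inside it on the same strand, so the peak is also one at a non-coding gene start. The weaker peak (X, 3555473 to 3555852) had 51.5 (replicate 1) and 51.8 (replicate 2), a mean of 51.6 ± 0.229 (SD, n = 2). It lay in the same intron of 26251 bp, 2149 bp from the nearest TSS of another gene, that of the ion channel gene ppk8. The replicates gave almost the same signal at both sites, although the weaker one was in the thresholded list of replicate 1 alone. Its IDR score, which ranks how reproducible a peak is, was 796 in replicate 2, below the lowest score of 830 in the thresholded lists. A further summit of the same gene, at 3539001, was absent from the conservative list and present in the thresholded list of replicate 1 and in the other series-level list. Its signal was 50.5 in replicate 1 and 32.4 in replicate 2.

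The partners of DIP-alpha lie next to each other on 3L. In dpr10 (FBgn0052057; 3L, 10147454 to 10186108, minus strand) the summit of the start peak (3L, 10185996 to 10186375) was 78 bp upstream of the single annotated TSS. Its signal was 36.5 (replicate 1) and 67.9 (replicate 2), a mean of 52.2 ± 22.2 (SD, n = 2). It passed the authors' threshold in replicate 2 alone, since its IDR score in replicate 1 was 141. No other gene had a TSS within 500 bp, and the nearest lay 10068 bp away. The neighbouring gene dpr6 (3L, 9974651 to 10139360, plus strand), with 164710 bp the longest of the dpr genes, held no conservative peak, and there was none in the 8093 bp between them. The strongest summit of dpr6 in the ranked series-level list, at 10110649 in an intron, had a signal of 65.4 and an IDR score of 771, with 31.8 in replicate 1 and 33.5 in replicate 2. A second ranked summit, 88 bp upstream of its TSS, had 42.9, with 19.9 in replicate 1 and 24.9 in replicate 2. In this trio, DIP-alpha and dpr10 thus had conservative peaks and dpr6 had only summits below the threshold.

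DIP-eta (FBgn0031725; 2L, 5601723 to 5617946, minus strand), which encodes another DIP, carried a start peak (2L, 5618011 to 5618390) with its summit 255 bp upstream of the TSS. The signal was 48.5 (replicate 1) and 59.2 (replicate 2), a mean of 53.9 ± 7.56 (SD, n = 2), and the peak was in the thresholded list of each. The nearest TSS of another gene was that of a non-coding RNA gene, 2079 bp away. DIP-theta, whose body begins 8344 bp beyond DIP-eta, held no peak. The gap between them held 2 summits, the DIP-eta start peak and one with a signal of 235, which lay 164 bp from the TSS of the cytochrome P450 gene Cyp6a16.

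The dpr20 peak (3L, 857733 to 857963) was the strongest of any dpr gene. Its summit lay 599 bp upstream of the only TSS of dpr20 (FBgn0035170; 3L, 852720 to 857248, minus strand), just outside the window of 500 bp, and the nearest TSS of another gene, Dci, was 6501 bp away. The signal was 227 (replicate 1) and 226 (replicate 2), a mean of 226 ± 0.682 (SD, n = 2), and both replicates placed the peak past the threshold. With a TSS window of 1000 bp it counts as a start peak, and 5 genes then have one. The start peak nearest to the inside of the window was that of dpr14, at 414 bp. At the margin of 1 kb, dpr20 was the gene nearest to the inside, and the nearest outside was DIP-theta, with a summit 2365 bp from its end.

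The remaining pair of start peaks lay between divergent genes. At dpr14 (FBgn0029974; X, 7903704 to 7908286, minus strand) the summit was 414 bp upstream of the dpr14 TSS but 231 bp from that of spidey, which encodes a steroid dehydrogenase family enzyme on the opposite strand. Its signal was 130 (replicate 1) and 118 (replicate 2), a mean of 124 ± 8.38 (SD, n = 2). Replicate 2 had another, weak summit beyond it, with a signal of 4.64, 23 bp from the TSS of spidey. At dpr19 (FBgn0032233; 2L, 10376168 to 10379905, plus strand) the summit was 347 bp upstream of dpr19 and 64 bp from the TSS of CG33303 on the opposite strand. There the signal was 37.9 (replicate 1) and 79.4 (replicate 2), a mean of 58.6 ± 29.4 (SD, n = 2), and the peak was thresholded in replicate 2 alone. Both summits were thus closer to the neighbour than to the dpr gene. Counted by the nearest TSS of a protein-coding gene, only dpr10 and DIP-eta had a start peak of their own.

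The sequences shown are those at summits that lay within 500 bp of no other gene's protein-coding TSS. Non-coding genes were not part of this choice, and the strong DIP-alpha summit also lies 222 bp from the TSS of CR34335. Each gives 50 bases to either side of the summit, 5′ to 3′ on the strand of the gene, from the RefSeq copy of the Release 6 genome in dm6 coordinates, with GGAA and GGAT on either strand (TTCC and ATCC on the printed one) in capitals. The DIP-alpha windows are chrX:3546282-3546382 and chrX:3555613-3555713, the dpr20 window is chr3L:857797-857897, the dpr10 window is chr3L:10186136-10186236 and the DIP-eta window is chr2L:5618151-5618251, all on the minus strand.
DIP-alpha, strong: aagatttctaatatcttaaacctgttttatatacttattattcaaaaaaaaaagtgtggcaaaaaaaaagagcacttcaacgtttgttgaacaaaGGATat
DIP-alpha, weak: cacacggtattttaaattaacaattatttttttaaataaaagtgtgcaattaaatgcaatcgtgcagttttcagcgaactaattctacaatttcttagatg
dpr20: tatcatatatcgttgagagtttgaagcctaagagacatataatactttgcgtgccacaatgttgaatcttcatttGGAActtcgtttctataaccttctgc
dpr10: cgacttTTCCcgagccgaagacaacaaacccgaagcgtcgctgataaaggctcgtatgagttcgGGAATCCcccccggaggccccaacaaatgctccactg
DIP-eta: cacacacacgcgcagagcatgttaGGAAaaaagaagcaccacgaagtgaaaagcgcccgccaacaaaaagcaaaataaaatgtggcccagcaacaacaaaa

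The windows differed in composition. The share of G and C was 24.8% at the strong DIP-alpha summit and 26.7% at the weak one, against 57.4% at dpr10, with a median of 35.6% over the 7 member windows and also over all conservative windows. GGAA occurred in 5 of the 7 member windows, against 49.1% of all conservative windows, and GGAT in 3, against 30.9%. The DIP-alpha sites were the windows without GGAA, and the weak one had neither word. In the dpr10 window a GGAA and a GGAT on the opposite strand shared 1 base and appear as one run of capitals. Of the other words searched on both strands, GAGAG (the GAGA factor word) and CGATA (a BEAF-32 word) each occurred once, at dpr20, against 16.6% and 12.8% of all windows, and TATAAAA once, at the strong DIP-alpha summit, against 7.84%. A match is a description of the sequence and not a measured site.

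**Figure D2:**
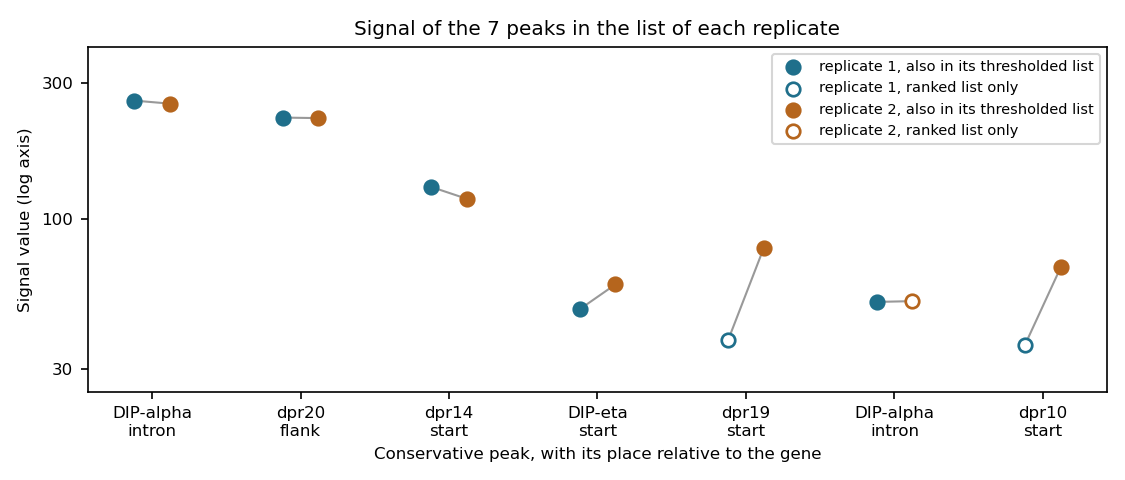
Signal value on a log axis of the 7 conservative peaks in the ranked list of replicate 1 (left point of each pair) and replicate 2 (right point), in order of conservative signal, with open points where the peak was not in that replicate's thresholded list. The strong DIP-alpha, dpr20 and dpr14 peaks lie within 12 units of each other between replicates, and those at dpr19 and dpr10 are higher in replicate 2.

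The replicates differed most at the weaker start peaks. Of the 7 summits, 4 were in the thresholded lists of both replicates (57.1%), against 59.7% of all conservative summits. The log2 ratio of replicate 2 over replicate 1 was 1.07 at dpr19 and 0.90 at dpr10, and between -0.14 and 0.29 at the other 5 sites. Over the 6429 of 7157 conservative summits with a match in both ranked lists, its median was 0.14 and its SD 0.56. In the thresholded list of replicate 1, 4 genes had a summit in the gene or within 1 kb, namely dpr14, dpr20, DIP-alpha and DIP-eta, against 28.1% of all genes. In that of replicate 2 there were 6, the same genes and dpr10 and dpr19, against 34.3% of all genes. Start peaks were present in 2 genes in replicate 1, against 17.8% of all genes, and in 4 in replicate 2, against 23.8%. An intron summit was present in DIP-alpha alone in each, against 8.64% of all genes in replicate 1 and 9.77% in replicate 2. The other series-level list, with 8788 peaks, gave 4 genes with a start peak, against 25.3% of all genes, and 6 with a summit in the gene or within 1 kb, against 36.2%, the same genes as the conservative list.

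Of the 7 summits, 4 were start summits (57.1%) and 2 intron summits (28.6%), against 41.8% and 38.5% over all protein-coding genes. The data did not give a stable order of strength between start and intron peaks of the members. The 4 start summits had a median signal of 117 (107 to 252) and the 2 intron summits 109.6 and 500.8, both of them in 1 gene. Over all protein-coding genes the medians were 134 at starts and 131 in introns. In the list of replicate 1 the order turned, with a median of 89.1 for 2 start summits and 51.5 for 3 intron summits, because the further DIP-alpha site was added and the starts of dpr10 and dpr19 were absent.

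The Dpr and DIP genes are long, and the share of genes with a peak was therefore also taken by gene length. Their median length was 32526 bp (3738 bp for dpr19 to 379081 bp for DIP-lambda), against 2165 bp for all protein-coding genes, and their median longest intron was 12271 bp, against 130 bp. DIP-lambda ranked 6 and dpr6 ranked 21 by length among the 13968 genes. Among the Dpr and DIP genes the share with a summit in the gene or within 1 kb was highest in the shortest class, whereas among all genes it was higher in each longer class. Under 10 kb, 3 of 8 members had one (37.5%, interval 13.7 to 69.4%), against 27.1% of all genes of that length. From 10 to 30 kb it was 1 of 7 (14.3%, interval 2.57 to 51.3%), against 60.2%. From 30 to 60 kb it was 1 of 11 (9.09%, interval 1.62 to 37.7%), against 65.1%, and at 60 kb or more 1 of 6 (16.7%, interval 3.01 to 56.4%), against 71.9%. The intervals of the members overlapped between all classes. Under 10 kb the summits were those of dpr14, dpr19 and dpr20, all outside the genes, and those at dpr14 and dpr19 were nearer to a neighbour's TSS.

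Of the 24 members of 10 kb or more, 3 had a summit (DIP-alpha, dpr10 and DIP-eta; 12.5%, interval 4.34 to 31.0%), against 1244 of 1985 genes of that length (62.7%). The other 21, among them dpr6, dpr8 and DIP-lambda, had none. For start peaks the count was 2 of 24 (8.33%, interval 2.32 to 25.8%), against 38.7%, and for intron summits 1 of 24 (4.17%, interval 0.739 to 20.2%), against 47.9%. In these 3 comparisons the interval of the members ended below the share of all genes of that length. Each replicate gave similar counts at 10 kb or more, with 2 of 24 in replicate 1, against 57.9%, and 3 of 24 in replicate 2, against 64.7%. The length classes were chosen with earlier results of these data known, and the differences were not tested.

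**Figure D3:**
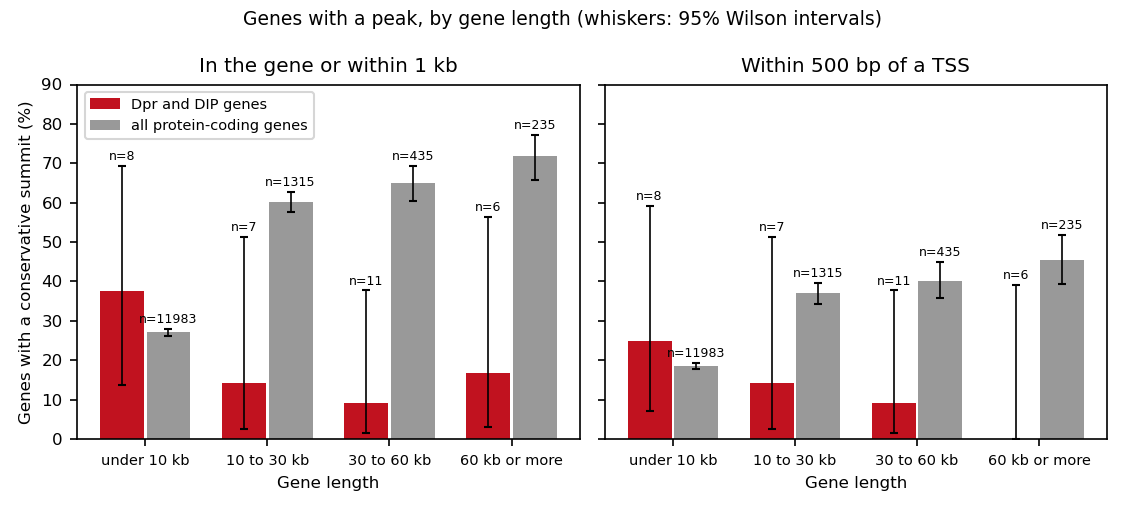
Share of genes with a conservative summit in the gene or within 1 kb (left) and within 500 bp of a TSS (right), in percent, by gene length, for the Dpr and DIP genes (red) and all protein-coding genes (grey), with 95% Wilson intervals as whiskers and the number of genes above. At 60 kb or more the red shares are 16.7% (left) and 0% (right), and the grey ones 71.9% (left) and 45.5% (right).

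The same was seen per length of gene. The 32 genes together span 1579 kb, and 2 conservative summits fell inside them, or 0.127 per 100 kb, against 5.22 per 100 kb over all protein-coding genes and 4.53 over those of 30 kb or more. The members' value was thus 0.0242 times that of all genes. A further count took summits over 500 bp from any protein-coding TSS, which leaves out protein-coding promoters but not those of non-coding genes. Of these summits the members of 30 kb or more had 0.143 per 100 kb, against 3.73 in all genes of 30 kb or more. The members' value includes the strong DIP-alpha peak, 222 bp from the TSS of CR34335. Replicate 1 gave 3 summits inside the members (0.190 per 100 kb), against 4.12 per 100 kb in all genes, and replicate 2 gave 1 (0.0633 per 100 kb), against 6.05. The bodies of the 21 dpr genes, 890 kb in all, held no conservative summit, and neither replicate's thresholded list had one there. The median distance from a member's TSS to the nearest conservative summit was 33271 bp, against 5712 bp over all genes.

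Part of this sequence lies where no gene had a conservative peak. Chromosome 4, which carries dpr7 ahead of its first summit, had 2 conservative summits in all. The first on arm 2R was at 6076728, and 3 members lie before it, DIP-lambda at 326768 to 705848, dpr21 at 3066499 to 3191011 and dpr12 at 5804712 to 5860831. Without these 4 genes, a choice made after seeing the data, 6 of 28 members had a summit (21.4%) and the conservative list gave 0.197 summits per 100 kb inside them. Genes of these regions were not left out of the values over all genes, so neither value has a matching one beside it. Lower-case bases, which mark repeats and low-complexity sequence in the RefSeq genome, made up a median of 17.8% of the members, against 8.41% of all genes, and 32.2% of DIP-lambda. The members are much longer than most genes, and no such share was taken for genes of like length. The part of peak-free regions and of lower-case sequence in the result was not tested.

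Below the authors' threshold the genes were not empty. In the ranked series-level list, with 38590 peaks on the main arms, 21 of the 32 genes had a summit in the gene or within 1 kb (65.6%), against 62.9% of all genes. At 10 kb or more the share was 16 of 24 members (66.7%), against 87.1% of all genes of that length. Per length the members again had fewer, with 5.32 per 100 kb, against 31.1 in all genes. The ratio of members to all genes was 0.171 in this list and 0.0242 in the conservative list, and in the ranked lists of the replicates it was 0.299 in replicate 1 and 0.156 in replicate 2. The dpr genes had 7.19 and the DIP genes 2.90 per 100 kb in the series-level list, but 9.10 (dpr) and 7.25 (DIP) in replicate 1 and 7.86 (dpr) and 3.92 (DIP) in replicate 2, so the distance between the families depended on the replicate. DIP-lambda alone makes up 379081 bp of the 689 kb of DIP genes, and held 2 of their 20 summits in the series-level list. Its part in this distance was not tested. Of the 97 ranked summits in or near the members, 7 reached the lowest conservative score of 830 (7.22%), against 20.8% over all genes. Among genes with no conservative peak, the highest ranked signals were those of dpr6, given above, and of DIP-epsilon, with 56.3 in an intron (score 718, 31.7 in replicate 1 and 29.7 in replicate 2). Next came dpr3, with 37.5 at its start, where replicate 1 had no summit within 100 bp and replicate 2 had 21.8.

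In the ranked lists of the replicates, 29 members had a summit in the gene or within 1 kb in replicate 1 (90.6%), against 68.9% of all genes, and 22 in replicate 2 (68.8%), against 67.4%. Without regard to length, the share of the members was thus near that of all genes in replicate 2 and above it in replicate 1, with no test. At 30 kb or more it was 17 of 17 members, against 643 of 670 genes, in replicate 1. In replicate 2 it was 13 of 17 members, against 604 of 670 genes. The strongest summit per member had a median signal of 20.2 in replicate 1 (12.6 to 260) and 19.5 in replicate 2 (8.88 to 254). Among genes of 30 kb or more with a ranked summit, the medians were 19.6 for 17 members and 82.2 for all genes in replicate 1, and 19.2 for 13 members and 104 for all genes in replicate 2. Among the 26 members without a conservative peak, the strongest ranked signal ranged up to 31.8 in replicate 1 (dpr6) and up to 34.9 in replicate 2 (dpr18). Of the 21 members with a ranked summit in each replicate, the strongest of each lay within 100 bp of each other in 8. These were the 6 genes with a conservative peak and dpr6 and DIP-epsilon. For the 6 genes this is not independent of the conservative list, which was made from both replicates. In the other 13 members the strongest summits were farther apart, by 107 bp in DIP-iota, 592 bp in DIP-gamma and over 10 kb in the rest. The genes dpr4 and dpr7 had no ranked summit in either replicate.

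**Figure D4:**
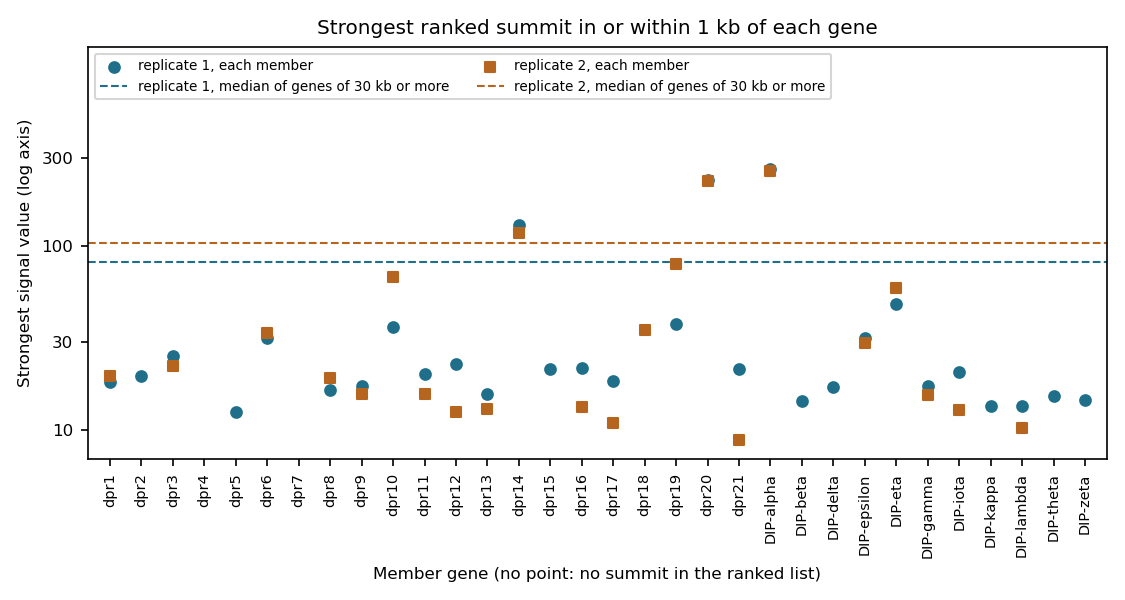
Signal value on a log axis of the strongest summit in or within 1 kb of each member in the ranked list of replicate 1 (circles) and replicate 2 (squares), with no point where a list had none. Dashed lines mark the medians of the strongest summit over all genes of 30 kb or more that have one, 82.2 in replicate 1 and 104 in replicate 2, and the points of 3 members (dpr14, dpr20 and DIP-alpha) lie above them in both.

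For the pairs DIP-gamma with dpr11 and DIP-delta with dpr12, neither partner had a conservative peak. Further pairings of Dprs and DIPs were not examined. DIP-gamma binds Dpr11, a pair that marks a subset of R7 photoreceptors and their targets. The strongest ranked signal of DIP-gamma was 17.4 in replicate 1 and 15.6 in replicate 2, and that of dpr11 was 20.2 in replicate 1 and 15.8 in replicate 2. DIP-delta binds Dpr12 in the mushroom body. For DIP-delta it was 17.2 in replicate 1, with no summit in replicate 2, and for dpr12 it was 22.8 in replicate 1 and 12.5 in replicate 2. All of these were in the range of the other members without a peak.

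A list of 57 other genes for cell-surface or secreted proteins, drawn up with earlier results of these data known, was set beside them. It is not a list of neuronal wiring genes alone, since kirre, for example, acts in myoblast fusion. The median length of the listed genes was 40634 bp. Of them, 32 had a conservative summit in the gene or within 1 kb (56.1%, interval 43.3 to 68.2%) and 18 had a start peak (31.6%). At 30 kb or more, 2 of the 17 Dpr and DIP genes had one (11.8%), against 26 of the 40 listed genes (65.0%) and 67.5% of all genes of that length. These differences were not tested. The share of the list was not even over its families. At 30 kb or more a summit was present in 4 of 10 beat genes, whose products act as receptors in axon guidance, in 2 of 6 side genes, which encode binding partners of Beat proteins, and in 20 of the other 24 genes. No beat gene had a start peak. The strongest peaks of the list were at ed, which encodes the adhesion protein Echinoid (signal 768, with 448 in replicate 1 and 309 in replicate 2), at kirre, which acts in myoblast fusion (638, with 319 and 317 in replicates 1 and 2), and at the adhesion gene Fas3 (516, with 248 and 266). The gene kirre alone held 29 conservative summits in 394149 bp, a length close to that of DIP-lambda. The 2 genes differ in location, since DIP-lambda lies before the first conservative summit of its arm, where no gene had one. The secreted binding partner of many Dprs and DIPs, cDIP, had none.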

How the data were processed

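ChIP-seq of Ets98B-eGFP covered whole pupae in 2 biological replicates, and the authors deposited peak lists on dm6, per the labels. Aligner, peak caller and versions: not given in the sources used here. Lists of a replicate came from its own alignment and the series-level lists from both alignments, each with a further file, per the authors' lists of files. Each peak has a deposited signal value of unstated scale, larger in series-level than in replicate lists, so series-level values were compared only within a list. Signals of the replicates were also set side by side, as means and log2 ratios, with scale and depth unknown. The deposited score, at most 1000, is read here as a measure of the irreproducible discovery rate (IDR), higher for more reproducible peaks. In the ranked series-level list, 8 columns that no label assigns to a replicate were not used.

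Summits were placed on genes of Ensembl release 115 (BDGP6.54, the assembly of dm6), with every annotated TSS counted. A peak could count for several genes. The placement was tested on planted peaks. Python 3.11.15, numpy 2.4.6, scipy 1.17.1 (Wilson intervals) and matplotlib 3.10.9 were used. Every member is named, and genes that are no members are named as the nearest TSS to a peak or as examples from the comparison list, with cDIP chosen as a known binding partner of Dprs and DIPs. Members and lists were chosen with earlier results of these data known. With 1 group there is no contrast between samples, so no test was run. Alternatives were each replicate alone, the other series-level list, stronger peaks, and other windows, margins and matches.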

Additional observations from a re-analysis of the deposited data

How the results depend on the processing

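Of 51 alternative values, 2 changed sign, 14 moved beyond a limit of size and 35 stayed within it. The limit was a fold change for counts and a lower Wilson bound for the share matched in both replicates. For the other values it was the SD of the 2 single-replicate values. Those 2 values were also judged by this limit, so their labels are not a separate check. For summits per 100 kb, 0.127 lies midway between 0.0633 and 0.190, so neither replicate could exceed the limit. Leaving out 1 replicate gave 2 to 4 genes with a start peak and 33.3 to 57.1% of summits at starts. The median signal of start minus intron summits (-188) ranged from -180 to 37.7 in the replicates and was 7.65 in the other series-level list. The stronger 3579 peaks gave 1 gene with a start peak, 3 genes and 3 summits, with 33.3% at starts. A TSS window of 250 bp gave 1 gene and 14.3%. Without the margin of 1 kb, 1 gene (DIP-alpha) and 2 summits were left, 0% of them at starts, and with 5 kb there were 12 summits, 33.3% at starts. With the thresholded lists of the replicates, 57.1% of summits matched in both. Summits per 100 kb of member genes, with alternatives chosen after seeing the data, ranged from 0.0633 (replicate 2 alone, or the stronger peaks; 1 summit) over 0.187 (without the 3 members over 300 kb from any summit) and 0.190 (replicate 1 alone, or the other series-level list; 3 summits) to 0.197 (without the 4 members before the first summit of their arm), around 0.127 from 2 summits. No paired analysis was possible because the samples form 1 group. Depth was unknown, and 7 peaks limit every comparison among the members.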

Other observations

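Outside the genes without a peak, the nearest summits ranged from the strongest of the list to ones near or below its median signal of 131. DIP-iota (2L, 6617134 to 6621700, minus strand) lies 4424 bp from the strongest peak of the whole conservative list, which has a signal of 3728 and its summit beyond the 3′ end of DIP-iota, 1023 bp from the nearest TSS of CG11050. Within DIP-iota itself the strongest ranked signal was 20.8 in replicate 1 and 12.9 in replicate 2. The gene dpr2 had a conservative summit 3652 bp upstream, with a signal of 137, at 361 bp from the TSS of Tmem214. Between dpr17 and dpr15, which are 27412 bp apart on 3R, lay 1 summit with a signal of 116, 9969 bp from dpr17, 17444 bp from dpr15 and 6812 bp from the TSS of CG4702. Nothing here assigns these peaks to the Dpr or DIP genes.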
